A study of Mus musculus with 11 samples.

Results

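The nuclei described here came from sensory neurons of the mouse trigeminal ganglion and were chosen by 4 transcripts, Fras1, Chrm2, Ccdc172 and Ptgfr. A nucleus was a member when its unique molecular identifier (UMI) counts of the 4 genes summed to at least 3 and came from at least 2 of the genes. This rule found 959 members among the 40359 nuclei of 8 tables (2.38%). Members were set against 31031 zero nuclei, which had no UMI of any of the 4 genes in the same table, and 8369 nuclei with fewer UMIs than the rule asks, or with UMIs of a single gene, were in neither group. A second comparison used 545 other large nuclei, which were zero nuclei carrying at least 3 UMIs from both genes of 1 of the pairs Runx3 and Neb, Calb2 and Col5a2, or Ano1 and Slc38a11.

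Nuclei were enriched from homogenized ganglia with an antibody to the neuronal nuclear protein NeuN on magnetic beads, and their RNA was counted by single nucleus RNA sequencing on the 10x Chromium platform (7 libraries) or by Drop-seq (1 table pooling 4 libraries). The injury libraries held nuclei after infraorbital nerve transection (IOT, a spared nerve injury in which superficial branches of the nerve are severed) at days 2, 7, 21 and 75, after shallow incisions of the facial skin, and from mice with lesions from chronic scratching. Wildtype C57BL mice over 6 weeks old without injury gave the 10x control and the Drop-seq control. The IOT and facial injury mice were C57BL mice of the same age range, and the scratching mice were of a FVBN/C57BL/129 mix and carried a Fos-tTA and a tetO-mCherry-2A-Gnaq* transgene, so that an activated Gnaq is made where Fos drives the transactivator. Ganglia of males and females were pooled, 10 mice for each 10x library except 6 at day 75, and 16 mice for Drop-seq. Each injury condition and time was therefore 1 pool, and the control was 1 10x pool beside the Drop-seq libraries. Animals within a pool cannot be told apart.

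Fras1 encodes an extracellular matrix protein of the Fraser complex, which holds epithelia to their basement membrane. Chrm2 encodes the M2 muscarinic acetylcholine receptor, which acts through inhibitory G proteins, Ptgfr encodes the receptor for prostaglandin F2 alpha, and Ccdc172 encodes a coiled-coil protein. Large diameter somatosensory neurons have myelinated axons that carry touch and position sense, are rich in neurofilaments and S100b, and use the mechanically gated channel Piezo2, while small diameter neurons carry pain, itch and temperature and are recognised by genes such as Scn10a, Calca and Trpm8.

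The members were deeper than the nuclei around them. Their median total was 6103 UMIs in the 10x control, against 3053 UMIs in zero nuclei of that library, and over the 8 tables the member median was 2.00 to 2.94 times that of zero nuclei. A nucleus with more UMIs meets a rule on summed UMIs more easily, so the shares below are also given after thinning each nucleus to 1500 UMIs and leaving out shallower nuclei. The day 7 library stood apart with 25 members and 134942 member UMIs, so that 1 UMI there was worth 7.41 CPM (UMIs of a gene divided by all UMIs of the group and scaled to 1000000). Totals of called genes below are also given without day 7, while CPM ranges, overlaps and list counts include it. At most 92 cell barcodes, and at most 1.37% of the smaller table, were shared by any pair of tables, and none belonged to members of more than 1 table. No doublet caller was run.

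Because the 4 genes chose the members, their own levels are a description. In the genome build mm10 (GRCm38), Fras1 spans chr5:96373955-96784728 on the plus strand, Chrm2 chr6:36388084-36528414 on the plus strand, Ccdc172 chr19:58511993-58553085 on the plus strand and Ptgfr chr3:151796502-151837630 on the minus strand. Most members had 2 of the genes (640 nuclei, 66.7%), 275 had 3 genes (28.7%) and 44 had all 4 (4.59%). Chrm2 was present in 643 members (67.0%), Fras1 in 624 (65.1%), Ccdc172 in 583 (60.8%) and Ptgfr in 431 (44.9%). Fras1 and Chrm2 were seen together in 384 members (40.0%), more often than any other pair. Just inside the threshold were 321 members with 3 UMIs from 2 genes, and just outside it were 784 nuclei with 2 UMIs from 2 genes and 613 nuclei with 3 or more UMIs from a single gene.

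When 1 gene was left out and nuclei were chosen by at least 2 UMIs from at least 2 of the other 3, the gene left out was also more frequent in the chosen nuclei. Over the 10x libraries, Fras1 stood at 63.3 CPM in nuclei chosen by the other 3 genes and at 20.6 CPM in nuclei with none of them, a ratio of 3.06. The ratio was 3.04 for Ccdc172 and 2.78 for Ptgfr. Chrm2 followed least, at 88.9 CPM in nuclei chosen by the other 3 genes, against 50.7 CPM in nuclei with none of them, a ratio of 1.75. It was below 1 in the Drop-seq table (0.803) and the facial injury library (0.989). The rule genes were chosen with earlier results of these data known. The ratios are therefore a description and cannot test whether these genes go together. A Fras1 UMI was found in 5.29% of the nuclei with none of the other 3 genes, at a median of 2466 UMIs, and in 29.1% of the chosen nuclei, at a median of 5950 UMIs, and RNA free in the suspension was not told apart from a low level in these nuclei.

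Members were present in all 8 tables. In the time series they made up 2.86% of nuclei in the 10x control (125 of 4368, 95% Clopper-Pearson interval 2.39 to 3.40%), 3.43% at day 2 after IOT (158 of 4611), 0.620% at day 7 (25 of 4033), 4.2% at day 21 (170 of 4046) and 5.53% at day 75 (201 of 3634). Facial injury gave 1.35% (117 of 8660) and scratch lesions 1.42% (111 of 7829), both below the 10x control. Drop-seq, with 52 of 3178 nuclei, gave 1.64%. These intervals cover counting error only, and with 1 table for each injury condition and time no single condition was tested against the control.

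After thinning to 1500 UMIs the order was not the same. The share was 0.458% in the control (20 of 4368, interval 0.280 to 0.706%), 0.260% at day 2, 0.0784% at day 7 (2 of 2550), 0.519% at day 21 and 0.495% at day 75. The intervals of the control and days 2, 21 and 75 overlapped, so the higher unthinned share at day 75, where the member median was 7919 UMIs, was not detectable at equal depth. Facial injury stood at 0.151% and scratch lesions at 0.235% after thinning, and their intervals reached 0.286% and 0.387%. Too shallow to thin were 2682 of 8660 nuclei after facial injury, 1440 of 7829 with scratch lesions and 1483 of 4033 at day 7. None were too shallow in the 10x control or at days 2, 21 and 75, so these shares set whole libraries beside the deeper part of others. The summed level of the 4 genes over all nuclei varied less than the shares, with 143 CPM at day 2, 93.3 CPM at day 7, 157 CPM at day 21, 128 CPM at day 75, 117 CPM after facial injury and 102 CPM with scratch lesions, against 118 CPM in the 10x control.

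**Figure D1:**
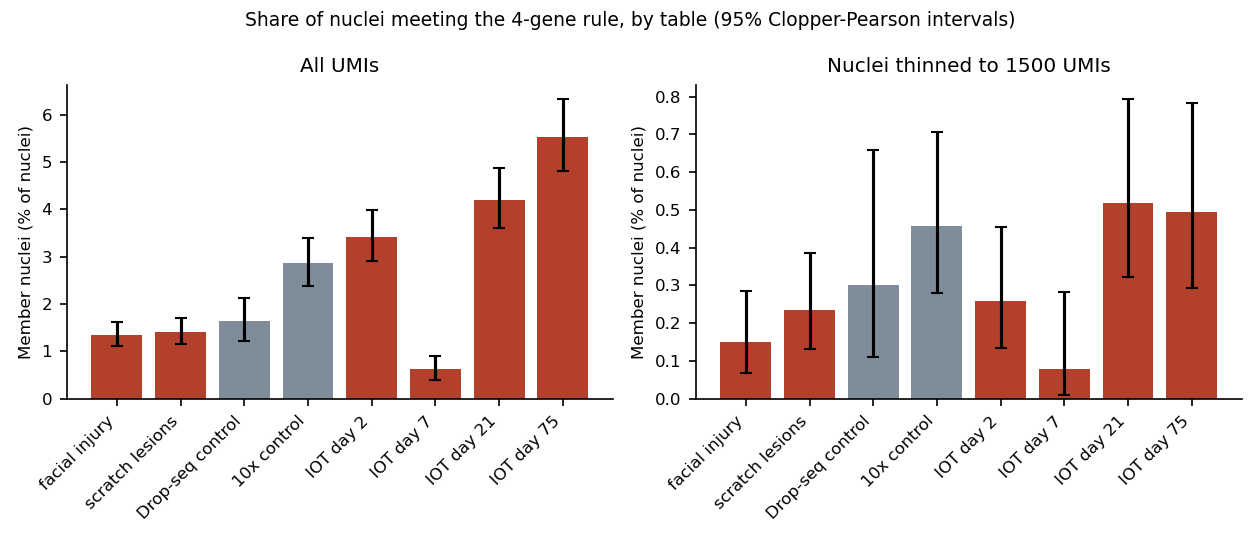
Share of nuclei meeting the 4-gene rule in each table, in percent of nuclei, with all UMIs (left panel) and after thinning each nucleus to 1500 UMIs (right panel); bars are shares, error bars 95% Clopper-Pearson intervals, red marks injury libraries and grey controls. The highest bar is day 75 (5.53%) with all UMIs and day 21 (0.519%) after thinning, and day 7 is the lowest in both panels.

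The label of these nuclei as large neurons was checked against markers and by clustering the 37181 nuclei of the 10x libraries with the 4 rule genes withheld. Of 25 clusters, cluster 8 took 348 of the 907 10x members (38.4%) and 2.03% of zero nuclei. Its leading genes by fold were Ptgfr, 2010300C02Rik, Fras1, Ccdc172, Grm8, Zfp652os, Spint2, Fam19a1, Cd4 and Fam196b, among them 3 of the 4 rule genes. The 4 genes were chosen with earlier results of these data known, so their place in this list is a description only. Within cluster 8, 19.8% of nuclei were members and 33.0% were zero nuclei. The other members were spread over cluster 2 (119 members, led by Smr2, Kcnv1 and Chrna7), cluster 11 (105, with Col19a1, St8sia4 and Ntng1 among its leading genes), cluster 22 (98, led by Chodl, Unc5b and Psma8) and cluster 1 (90, led by Runx3, Neb and Ano1). These 5 clusters held 83.8% of members and 20.5% of zero nuclei.

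The members were spread over several clusters, and they are called by their rule from here on. Members of cluster 8 were high in Ntrk3, the receptor for neurotrophin-3 (2283 CPM), and low in Scn10a, a sodium channel of small neurons (116 CPM). Members of cluster 22 had the most Piezo2 of the 5 clusters (3320 CPM) and little Ptgfr (17.4 CPM). Members of cluster 11 carried Ntng1, which encodes the membrane protein netrin-G1 (1587 CPM), and little Ntrk3 (143 CPM). Members of cluster 2 were the deepest of the 5, with a median of 9976 UMIs, and had 661 CPM of Scn10a and 378 CPM of Calca, the gene of the peptide CGRP, whereas all nuclei of that cluster had 943 and 1647 CPM. Fras1 was highest not in cluster 8 (97.9 CPM) but in cluster 17 (175 CPM, 15 members), and Chrm2 was highest in cluster 15 (336 CPM, 11 members). Of the nuclei meeting the pair rules of the other large groups, 9 of 170 Runx3 and Neb nuclei (5.29%), 7 of 350 Calb2 and Col5a2 nuclei (2.0%) and 5 of 282 Ano1 and Slc38a11 nuclei (1.77%) were also members, beside 2.38% of all nuclei.

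The share of members in cluster 8 was 36.8% in the control, 29.7% at day 2, 36% at day 7, 36.5% at day 21 and 38.8% at day 75. It was 39.3% after facial injury and 54.1% with scratch lesions. A coarser clustering put 61.6% of members in 1 cluster of 5268 nuclei, so how many members fall together depends on that choice.

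**Figure D2:**
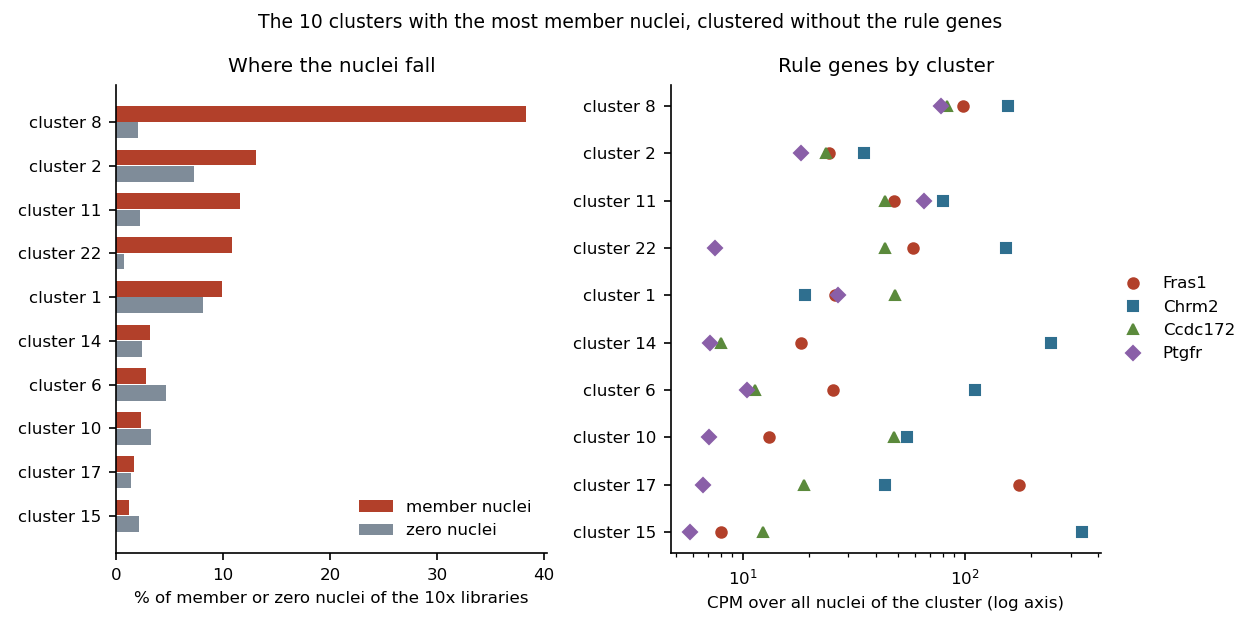
The 10 clusters with the most members, formed without the 4 rule genes. Left, percent of member nuclei (red) and of zero nuclei (grey) of the 10x libraries in each cluster; right, CPM of each rule gene over all nuclei of the cluster on a log axis. Cluster 8 holds 38.4% of members and 2.03% of zero nuclei, while Chrm2 peaks in cluster 15.

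Member nuclei were set against zero nuclei in each of the 7 10x libraries. Genes of large diameter neurons were higher in members, with 19 of 26 tested genes higher, 4 lower and a median log2 difference of 0.64. Genes of small diameter neurons were lower, with 21 of 22 tested genes lower, 1 higher (P2rx3, 0.31) and a median of -1.65. The median over all 13779 genes tested was -0.0076. In the edgeR quasi-likelihood test on counts summed per library, with library as a block and Benjamini-Hochberg adjusted p under 0.05, 1806 genes were higher (13.1%) and 1888 lower (13.7%), 26.8% in all. Without the day 7 library, 2003 genes were higher and 1823 lower.

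Cabp7, a neuronal calcium-binding protein, had 44.0 to 115 CPM in members of the 7 libraries (median 88.9), against 11.6 to 25.9 CPM in zero nuclei (median 15). The ranges did not overlap, and Cabp7 was 2.20 ± 0.11 (SE) higher on the log2 scale, with an edgeR adjusted p of 5.87e-22. Hapln1, which links hyaluronan to proteoglycans in the extracellular matrix, had 30.9 to 91.8 CPM in members and 10.0 to 20.6 CPM in zero nuclei (log2 difference 1.94). F2r, the thrombin receptor, had 22.2 to 40.0 CPM in members and 6.49 to 11.9 CPM in zero nuclei (1.81), again with no overlap. Other large rises were in 2010300C02Rik (2.19), Gm43398 (1.81), Syne4 (1.80), Fam196b (1.72), the prokineticin receptor Prokr1 (1.68), Grm8 (1.49), Pcp4l1 (1.48) and Pcp4 (1.47). Of these, Syne4, Gm43398 and Pcp4 overlapped between members and zero nuclei across libraries.

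Grm8, a metabotropic glutamate receptor, had 371 to 1095 CPM in members (median 759), against 186 to 330 CPM in zero nuclei (median 276). All 7 libraries of members lay above all 7 of zero nuclei in Grm8. Pcp4, a calmodulin-binding protein, had 496 to 2071 CPM in members and 220 to 624 CPM in zero nuclei, and 1 of the 7 member libraries lay below the highest zero value, although members were higher within each library. Among the 5 main clusters, members of cluster 22 had the most Cabp7 (204 CPM) and F2r (94.5 CPM), and members of cluster 8 the most Grm8 (1237 CPM).

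Among the large diameter genes, Ntrk3 had 919 to 1605 CPM in members (median 1314), against 372 to 572 CPM in zero nuclei (median 516), and was 1.39 ± 0.06 higher on the log2 scale (edgeR adjusted p 8.21e-24). Rgs6, a regulator of G protein signalling, had 346 to 882 CPM in members and 161 to 287 CPM in zero nuclei (1.36). S100b, a calcium-binding protein of myelinated neurons and of glia, had 634 to 1119 CPM in members and 322 to 551 CPM in zero nuclei (0.97). None of these 3 overlapped between the groups. Nefh, the heavy neurofilament chain, had 784 to 1633 CPM in members and 452 to 852 CPM in zero nuclei (0.83), and the potassium channel Kcna1 (1.28), the sodium channel Scn1a (0.75) and Ntng1 (0.55) were also higher, with overlapping ranges. Piezo2 had 1334 to 2251 CPM in members, against 775 to 1211 CPM in zero nuclei, a log2 difference of 0.70 with no overlap. Large diameter genes that were lower in members included the T-type calcium channel Cacna1h (-1.80), the guidance ligand Slit2 (-0.71) and Ntrk2, the receptor for BDNF (-0.42); Ntrk2 was named after its value was seen.

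Trpm8, the cold-activated channel, had 1.82 to 35.4 CPM in members (median 7.41), against 59.1 to 160 CPM in zero nuclei (median 98.3). Its log2 difference was -2.98 ± 0.15 (edgeR adjusted p 1.34e-21). Il31ra, a receptor of itch neurons, had 0 to 6.84 CPM in members and 15 to 41.9 CPM in zero nuclei (-3.14). Trpa1, the irritant receptor, had 0 to 10.4 CPM in members and 22.1 to 67.7 CPM in zero nuclei (-2.58). None of the 3 overlapped. The other large falls were Gm38256 (-3.49), the transcriptional cofactor Ldb2 (-2.77), Moxd1 (-2.76), the leak potassium channel Kcnk13 (-2.57), the protein kinase C gene Prkcq (-2.49), Rgs8 (-2.37), the receptor phosphatase Ptprt (-2.37), Sh2d4b (-2.36) and the Ras activator Rasgrp1 (-2.34), all without overlap between groups.

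Runx1, a transcription factor of nociceptor identity, had 21.2 to 69.7 CPM in members and 182 to 291 CPM in zero nuclei (-2.33). The kainate receptor Grik1 had 163 to 529 CPM in members, against 879 to 1911 CPM in zero nuclei (-1.97). Scn10a had 141 to 298 CPM in members and 377 to 591 CPM in zero nuclei, a smaller difference of -1.06. Of 16 neuropeptide genes tested, 11 were lower and 3 higher (median -0.92), beside 13.7% and 13.1% of all genes. Their summed level was 1620 to 3910 CPM in members (median 3091), against 2075 to 3915 CPM in zero nuclei (median 2385), and it was higher in members in 4 of 7 libraries. Calca had 51.9 to 503 CPM in members and 373 to 1371 CPM in zero nuclei (-1.59, overlapping ranges), and Tac1, the substance P precursor, had 44.5 to 148 CPM in members and 196 to 486 CPM in zero nuclei (-1.79, no overlap). The exceptions were Fam19a1 (1.33), which encodes a secreted protein, and, named after their values were seen, Fam19a2 (0.83) and Chga (0.55). In the 10x control, Fam19a1 alone stood at 1791 CPM in members, where the list summed to 3028 CPM. In zero nuclei of that library it stood at 617 CPM of a summed 2310 CPM, so much of the sum in members came from this 1 gene.

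**Figure D3:**
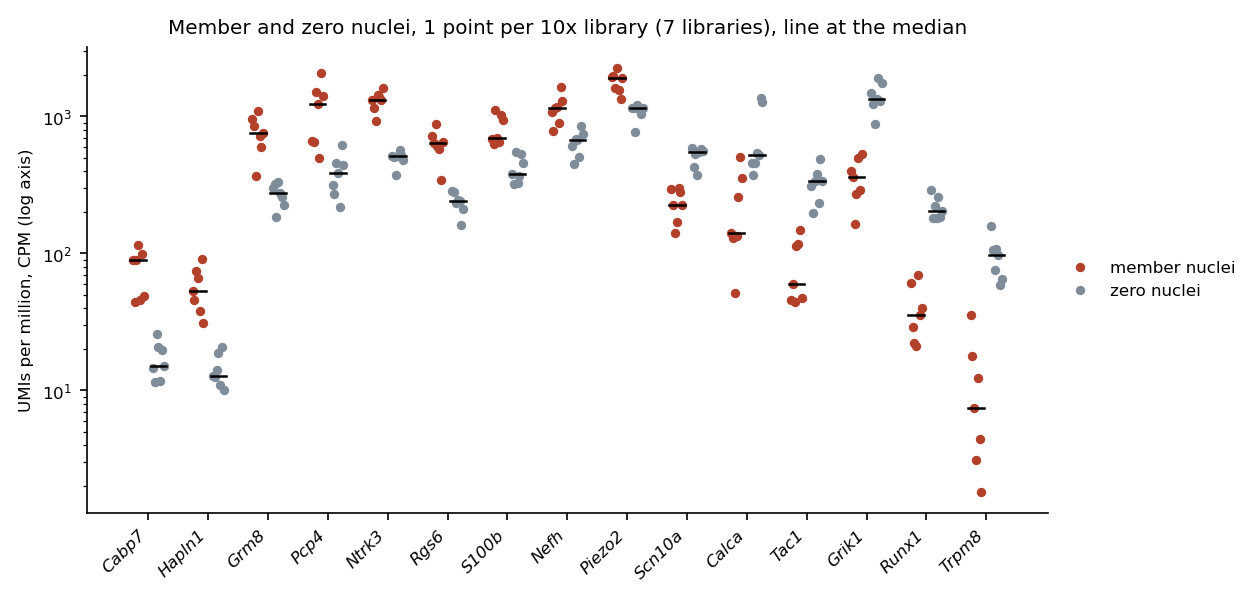
CPM of 15 genes, on a log axis, in member nuclei (red, left of each pair) and zero nuclei (grey), with 1 point for each of the 7 10x libraries and a line at the median. Ntrk3 and Piezo2 of members lie above all zero nuclei values (918.9 and 1334 CPM at lowest), and Trpm8 of members lies below them (35.4 CPM at highest).

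Families of channels and receptors held both rises and falls, beside 13.1% higher and 13.7% lower of all genes tested. Of 49 potassium channel genes tested, 19 were higher and 23 lower in members, and the falls included Kcnh8 (-2.19) and Kcnc2 (-1.19). Sodium channel genes were 6 higher and 6 lower of 14, with Scn1a higher and Scn11a lower (-1.59). Calcium channel genes were 4 higher and 8 lower of 20, among them Cacna1c, an L-type pore subunit with 59.3 to 249 CPM in members and 406 to 790 CPM in zero nuclei (-1.82). Cacna2d1, the subunit bound by gabapentin, was also lower (-1.20). Among mechanosensory channels and partners 4 of 21 were higher and 9 lower, Piezo2 being higher while Asic2 (-0.64) was lower. GABA and glycine receptor genes were 6 higher and 6 lower of 16, with Gabra5 at 1.18.

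The relatives of the 4 rule genes were described by lists that left the rule genes out. Of 24 tested genes of the Fraser complex and basement membrane, 3 were higher and 7 lower, beside 13.1% higher and 13.7% lower of all genes tested. Col4a2, a type IV collagen chain, had 37.0 to 79.0 CPM in members and 17.2 to 48.6 CPM in zero nuclei (1.29), while the laminin Lama4 (-1.87) and the integrin Itga6 (-1.39) were lower. Among 16 genes of cholinergic receptors and signaling, 4 were higher and 9 lower, and Ache, which breaks down acetylcholine, was 0.49 higher. That call for Ache was lost after thinning and without the deepest 5% of nuclei (0.26 and 0.30). Among 17 genes of prostanoid receptors and synthesis, 4 were higher and 5 lower, with the prostaglandin receptors Ptgdr (-1.94) and Ptger3 (-0.66) lower. Gnaq, the G protein subunit through which Ptgfr acts, had 385 to 572 CPM in members and 551 to 758 CPM in zero nuclei (-0.42). The scratching mice carried a Gnaq transgene, and by the study's methods its mCherry partner was not seen in their somatosensory neurons.

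Gfra1, a co-receptor for GDNF, had 268 to 498 CPM in members and 90.8 to 208 CPM in zero nuclei (1.24), and Fgfr1 had 150 to 287 CPM in members and 71.7 to 125 CPM in zero nuclei (1.13). Neither overlapped. Neurotrophic receptor genes counted 9 higher and 11 lower of 23 tested, beside 13.1% and 13.7% of all genes. Sema5a, a guidance molecule, was 1.42 higher and Plxnc1, a semaphorin receptor, 1.63 lower, with guidance genes 16 higher and 12 lower of 45. The adhesion molecule Nrcam was 1.33 higher and Ncam1 fell by 1.48, in a list with 20 higher and 23 lower of 60. In synaptic release, 11 were higher and 12 lower of 30, with the vesicle protein Rph3a higher (0.93) and the calcium sensor Syt7 lower (-1.71). Transcription factors of identity were 11 higher and 21 lower of 51, with Nfia at 0.92.

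Markers of other cell types were counted in the same fit, in which 13.1% of all genes were higher and 13.7% lower. Of 14 satellite glia genes, 7 were lower and 1 higher (S100b, which neurons also make), and of 13 Schwann cell genes, 8 were lower and none higher. Apoe had 37.1 to 512 CPM in members and 127 to 678 CPM in zero nuclei (-0.39), with overlapping ranges. The satellite glia list summed to 360 to 929 CPM without S100b in members, against 462 to 1146 CPM in zero nuclei, and it was lower in members in all 7 libraries. The Schwann list summed to 312 to 934 CPM in members, against 536 to 1448 CPM in zero nuclei. Fibroblast genes were lower in 4 of 9 and vascular genes in 3 of 7, among them Rgs5 (-2.13), while leukocyte genes were 1 higher and none lower of 4, with a summed level higher in members in 6 of 7 libraries (median 72.7 CPM in members and 61.3 CPM in zero nuclei), and red cell genes 3 lower of 4. The part of glial RNA in the other differences was not tested beyond a fit without the 10% of nuclei highest in glial genes, which gave 1738 genes higher and 1777 lower.

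The counts changed with the model, with depth and with the classes compared. Without library as a block, 271 genes were higher and 472 lower. Zero nuclei drawn to be near members on total UMIs in each library gave 1064 genes higher and 1175 lower of 11305 tested. The match was partial, since these zero nuclei had a lower mean depth than members in every library. Their mean was 7123 against 10145 UMIs at day 75, and 4775 against 4965 UMIs with scratch lesions. Thinning gave 695 and 897 of 11478. Within cluster 8 alone, members differed from zero nuclei in 95 genes higher and 104 lower of 4589 tested (4.34%), an alternative added after the data were seen. Of the 1912 genes called in all nuclei and tested there, 159 were called, 140 of them with the same sign, and 555 had the opposite direction, called or not. Ntrk3 (0.77), Pcp4 (1.08), Pcp4l1 (0.81), Fgfr1 (0.77), Rph3a (0.51), S100b (0.47), Nefh (0.42), Kcna1 (0.42) and Sema5a (0.42) were still higher in members inside the cluster, as was Cabp7 (0.82, adjusted p 0.0495 by edgeR). Ntng1 (-0.38), Ldb2 (-1.02), Sema6a (-0.92) and Cacna2d1 (-0.38) were lower in members there. Of the 39 genes named against zero nuclei and tested in the cluster, these and the higher ones made up the 14 called. Among those not called were Grm8 (0.16), Syne4 (0.62), Fam196b (0.12), Gfra1 (0.02), Nrcam (0.01), Rgs6 (-0.01) and Piezo2 (-0.07). Grik1 (-0.06), Scn10a (-0.48), Calca (-0.30), Tac1 (-0.38) and Cacna1c (-0.36) were not called either.

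**Figure D4:**
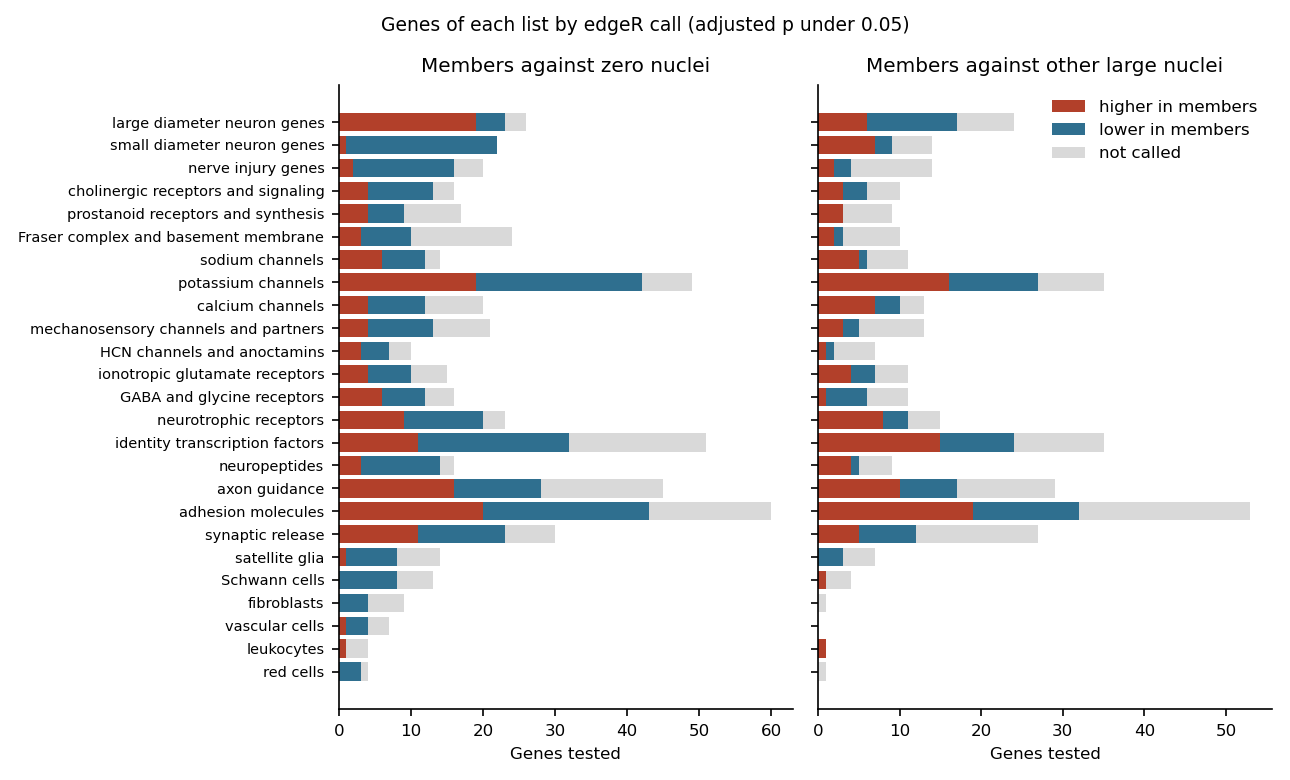
Genes of each of 25 lists by edgeR call at adjusted p under 0.05, for members against zero nuclei (left) and members against other large nuclei (right); red is higher in members, blue lower, grey not called. Small diameter genes are lower in 21 of 22 against zero nuclei and higher in 7 of 14 against other large nuclei.

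Against the other large nuclei, members had more of 7 small diameter genes and less of 11 large diameter genes. The comparison used 907 members and 473 other large nuclei of the 7 libraries, with the 10 genes of the rules left out. Of 7583 genes tested, 903 were higher (11.9%) and 776 lower (10.2%) by the edgeR quasi-likelihood test, 22.1% in all. Without day 7, 927 were higher and 806 lower, and thinned nuclei gave 315 higher and 280 lower of 2760 tested. Large diameter genes were 6 higher and 11 lower of 24 (median -0.26), and small diameter genes were 7 higher and 2 lower of 14 (median 0.84), beside a median of -0.0036 over all genes. Nefh had 784 to 1633 CPM in members and 848 to 3390 CPM in other large nuclei (-0.58 ± 0.13, adjusted p 0.00188 by edgeR). That call for Nefh was lost under the stricter rule of 5 UMIs from 3 genes (-0.54). S100b was not called (-0.16, adjusted p 0.363 by edgeR), with 634 to 1119 CPM in members and 533 to 1903 CPM in other large nuclei.

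Piezo2 had 1334 to 2251 CPM in members (median 1894), against 389 to 1007 CPM in other large nuclei (median 744), a log2 difference of 1.36 ± 0.14 (edgeR adjusted p 4.84e-08). Mechanosensory genes were 3 higher and 2 lower of 13, and Asic2, an acid-sensing channel subunit, was 1.64 higher with overlapping ranges. Sodium channel genes were 5 higher and 1 lower of 11, and Scn7a had 489 to 1123 CPM in members and 49.4 to 334 CPM in other large nuclei (1.77). Scn9a was 1.45 higher and Scn10a 1.58 higher, the last with 0 to 165 CPM in other large nuclei. Scn10a was unequal among members, highest in cluster 2 and at 319 CPM in cluster 22. It stood at 116, 78.9 and 61.5 CPM in members of clusters 8, 11 and 1, and at 245 CPM in members outside these clusters. How far the rise of small diameter genes rests on members of cluster 2 was not tested. Potassium channel genes were 16 higher and 11 lower of 35, and over all genes of this comparison 11.9% were higher and 10.2% lower. Kcnq5 (2.57) and Kcnd3 (2.07) were among those higher, with overlapping ranges. Members were above zero nuclei in 3 of 7 libraries for Kcnq5 and 2 for Kcnd3.

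Cplx2, a complexin that controls vesicle fusion, had 87.9 to 321 CPM in members and 5.49 to 51.2 CPM in other large nuclei (3.03). Spint2, a protease inhibitor of the cell surface, had 218 to 1852 CPM in members and 27.5 to 274 CPM in other large nuclei (3.08), with 1 member library inside the range of the others. Ptgir, the prostacyclin receptor, had 34.4 to 70.8 CPM in members, against 0 to 17.3 CPM in other large nuclei (3.11). It was 1 of 3 prostanoid genes higher of 9 tested with none lower, beside 11.9% higher and 10.2% lower of all genes. F2r (3.06), Sytl3 (3.14), Syne4 (2.98), Fam19a1 (2.93), the ATP-gated channel P2rx3 (2.83), Dock5 (2.75), Pde11a (2.63) and the sorting receptor Sorl1 (2.63) were other large rises. Of these, Fam19a1 and Sorl1 overlapped between groups. Members were above zero nuclei in none of the 7 libraries for Pde11a, in 5 for P2rx3 and in 6 for Sorl1. For F2r, Sytl3, Syne4, Fam19a1 and Dock5 they were above zero nuclei in all 7. Among the 5 main clusters, cluster 2 members had the most Cplx2 (386 CPM) and P2rx3 (83.6 CPM), and cluster 22 members the most Ptgir (112 CPM).

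Growth factor receptors were mostly higher, 8 of 15 with 3 lower, beside 11.9% higher and 10.2% lower of all genes. Ngfr, the low-affinity neurotrophin receptor, had 255 to 685 CPM in members and 21.9 to 153 CPM in other large nuclei (2.31), and Gfra1 was 1.26 higher, neither overlapping. Nrcam (2.30), Sema5a (2.48) and Rph3a (2.01) were higher here as they were against zero nuclei, which contain the other large nuclei, so the comparisons are not independent. The mu opioid receptor Oprm1 (1.58), the serotonin receptor channel Htr3a (1.64), the nicotinic receptor Chrna7 (1.34), the glutamate receptor Grin3a (1.45), Ptger3 (1.27) and Col4a2 (0.99) were higher with overlapping ranges. The transcription factors Casz1 (2.04) and Zeb2 (1.65) were higher without overlap, among 15 higher and 9 lower of 35.

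Among the falls, Eya1, a transcriptional coactivator, had 1.82 to 9.77 CPM in members and 26.0 to 165 CPM in other large nuclei (-3.58 ± 0.25, edgeR adjusted p 1.38e-10). Col6a3, a collagen chain, had 0 to 9.77 CPM in members and 38.4 to 80.4 CPM in other large nuclei (-3.29). Sphkap, an anchor of protein kinase A, had 22.2 to 65.1 CPM in members and 115 to 408 CPM in other large nuclei (-2.64). None of the 3 overlapped. Angpt1 (-3.12), the adrenergic receptor Adra1a (-3.02), Ankrd33b (-3.02), Tmem132c (-2.96), Zfp618 (-2.95) and Fbxo40 (-2.67) were the other large falls. Eya1, Angpt1 and Adra1a were leading genes of cluster 7, as were the pair genes Calb2 and Col5a2. Zero nuclei had 1.81 to 10.9 CPM of Eya1, near the level of members. Members were above zero nuclei in 3 of 7 libraries for Eya1, 2 for Fbxo40 and 1 for Adra1a. They were above in none for Col6a3, Sphkap, Angpt1, Ankrd33b, Tmem132c and Zfp618. Slit2 (-2.01), Spp1 (-1.65), Ntng1 (-0.94), the glutamate transporter Slc17a7 (-1.39), Itga6 (-2.20) and the transcription factor Maf (-1.47) fell with overlapping ranges, and the orphan receptor Esrrg fell without overlap (-1.40). Against zero nuclei, members were higher in all 7 libraries for Ntng1, Slc17a7 and Maf. They were above zero nuclei in 4 libraries for Esrrg, 3 for Spp1, 1 for Itga6 and none for Slit2.

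GABA and glycine receptor genes were 1 higher and 5 lower of 11, beside 11.9% and 10.2% of all genes. Gabrg1 had 7.41 to 42.9 CPM in members and 61.9 to 209 CPM in other large nuclei (-2.39). Gabrb2 was also lower (-1.46), and neither overlapped. Bche, a cholinesterase, had 5.45 to 20.5 CPM in members and 44.2 to 126 CPM in other large nuclei (-2.31), and the muscarinic receptor Chrm3 was lower (-1.36), in a list of 10 with 3 higher and 3 lower. Members were above zero nuclei in 6 of 7 libraries for Chrm3, 4 for Gabrb2, 1 for Bche and none for Gabrg1. Satellite glia genes were 3 lower and none higher of 7, among them Ptprz1 (-2.08), and their sum without S100b was 360 to 929 CPM in members and 592 to 1317 CPM in other large nuclei. The part of glial RNA in the other differences was not tested beyond a fit without the 10% of nuclei highest in glial genes. That fit gave 828 genes higher and 702 lower of 7042 tested. In the Drop-seq table, kept out of the fits, 76.7% of the 1681 genes higher against zero nuclei and 89.6% of the 1763 lower genes measured there had the same direction, beside 41.9% and 58.1% of all genes. Against other large nuclei, 92.0% of the 866 higher genes and 90.4% of the 731 lower genes measured there had the same direction, beside 53.4% and 46.6% of all genes.

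**Figure D5:**
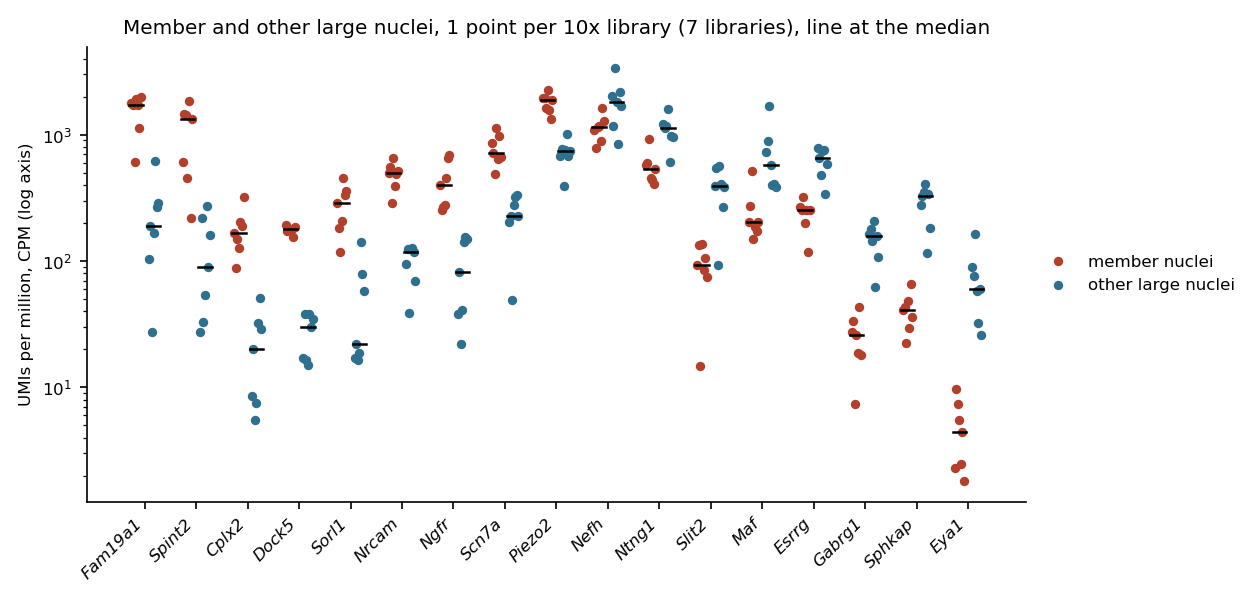
CPM of 17 genes, on a log axis, in member nuclei (red, left of each pair) and other large nuclei (blue), with 1 point for each of the 7 10x libraries and a line at the median. Cplx2 and Piezo2 of members lie above all values of other large nuclei, and Eya1 of members lies below them (9.77 CPM at highest).

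Injury was followed in members by Atf3, the transcription factor induced in axotomized neurons. Atf3 stood in members at 3.42 CPM in the control, 32.6 CPM at day 2, 7.41 CPM at day 7, 11 CPM at day 21 and 7.36 CPM at day 75, and in zero nuclei at 2.59, 56.7, 84.9, 40.0 and 10.3 CPM at the same times. After facial injury it stood at 14.8 CPM in members and 16.4 CPM in zero nuclei, and with scratch lesions at 5.45 CPM in members and 26.3 CPM in zero nuclei. The day 7 value of members is 1 UMI. It was highest at day 2 in members and at day 7 in zero nuclei. Atf3 was detected in 13.9% of members at day 2 (22 of 158, interval 8.94 to 20.3%) and 0.800% in the control (1 of 125), and after thinning in 4.43% of members and 6.53% of zero nuclei at day 2. Across the 7 libraries it was lower in members than in zero nuclei (-1.08, adjusted p 5.09e-06 by edgeR), a call that DESeq2 did not give (-1.11).

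Of 20 nerve injury genes tested, 14 were lower, 2 higher and 4 not called (median -0.63), beside 13.7% lower and 13.1% higher of all genes. Sox11, a transcription factor of regeneration, had 52.5 to 107 CPM in members and 63.9 to 176 CPM in zero nuclei (-0.66), highest at day 2 in both. Sema6a, a guidance molecule, had 31.9 to 155 CPM in members and 39.0 to 248 CPM in zero nuclei (-0.67), and Gal, the galanin precursor, had 4.42 to 47.2 CPM in members and 11.8 to 205 CPM in zero nuclei (-1.97). The 2 higher genes were Gfra1 (1.24) and, named after its value was seen, Jun (0.45). In the 2 clusters highest in Atf3, cluster 10 and cluster 20, lay 22 of 907 members (2.43%), against 5.15% of zero nuclei. At day 2 these clusters held 14 of 158 members (8.86%), against 12.4% of zero nuclei, and at day 7 they held 1 of 25 members (4.00%), against 13.4% of zero nuclei. A nucleus whose rule genes had been lost would not be counted as a member, so these shares describe only nuclei that kept them.

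Members after IOT (4 libraries) were compared with members of the 10x control, facial injury and scratch libraries (3 libraries). No gene of 9852 passed the edgeR test (0.0%), 931 (9.45%) had an unadjusted p under 0.05 and DESeq2 called 23. The count rested on single libraries, since edgeR called 97 genes without the 10x control, 51 without day 21 and 7 without day 75, and none when day 2, day 7, facial injury or scratch lesions was left out. The 97 and the 51 shared 5 genes. Nerve injury genes had a median of 0.44 after IOT, beside -0.0045 over all genes, with none of 16 called. Whether the difference between members and zero nuclei itself changed with IOT was tested as an interaction, in which 0 of 13779 genes passed (0.0%), 538 (3.9%) had an unadjusted p under 0.05 and DESeq2 called 0.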

How the data were processed

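The UMI counts per gene and nucleus were deposited by the authors as 1 table for each 10x library and 1 for the 4 pooled Drop-seq libraries. Submitters' processing notes name bcl2fastq 2.17, Cell Ranger 2.1.0, STAR 2.5.3a, Seurat 2 and the genome build mm10. Reads were counted over exons and introns, and non-neuronal clusters were removed by the authors. Their gene annotation is not stated in the sources used here. Coordinates were taken from GENCODE vM21, where 22593 of 24243 symbols had a match.

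Members and gene lists were chosen with earlier results of these data known. Counts of the 17612 genes shared by the 10x tables were summed per library and group and tested in edgeR 4.0.16 (R 4.3.3; filterByExpr, TMM scaling, quasi-likelihood test, library as block), with Benjamini-Hochberg adjustment over all genes tested and a threshold of 0.05. The rule genes, and for the other large nuclei also the 6 pair genes, stayed out of the tests. CPM were computed per library and group. DESeq2 1.42.0 was an alternative. Other alternatives changed the rule, scaling, filter, depth or block, or left out a library. Nuclei were clustered on 2000 variable genes, 30 components and 20 neighbours (Python 3.11.15, scikit-learn 1.9.0, leidenalg 0.10.2, resolution 1). The tests were tried on simulated data. Named genes were the 12 largest differences each way with adjusted p under 0.05, at least 20 CPM and 1 direction in every 10x library, up to 4 per list, and genes that the study names; a few genes that met this rule are not reported here. P-values measure the spread between libraries, each of which is a pool of mice. Nuclei from 1 pool are not replicates, and intervals on shares cover counting error only.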

Additional observations from a re-analysis of the deposited data

Results flagged for a closer look

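Each of 131 sets of values was searched for a single library far from the others, by the gap to its neighbour as a share of the whole range. The sets covered the 7 10x libraries, except that the unthinned and thinned shares of member nuclei covered all 8 tables. In 16 sets a library stood apart. The cut is made for about 1 in 20 among independent values of equal spread. The sets are not independent, and day 7 had 134942 member UMIs against 550647 to 2037790 in the other 10x libraries. The number of sets can therefore not be set against chance. The day 7 library, with 25 members, was the one that stood apart in 14 of the 16 sets. Among log2 ratios of members over zero nuclei it was the lowest for Ldb2 (gap 0.830 of the range), Rasgrp1 (0.803), Slit2 (0.764), Gabra5 (0.733), Lama4 (0.706), Scn11a (0.685), Cacna1c (0.636), Syne4 (0.597) and Scn10a (0.588). Ratios were taken after adding 1 CPM to each value. Day 7 members had no UMI of Ldb2, Rasgrp1 or Lama4, so the size of those gaps depends on the added 1 CPM. Gabra5 and Scn11a rested on 1 UMI each there (7.41 CPM). The day 7 library was the highest for Ntng1 (0.660), Itga6 (0.653) and Asic2 (0.595). Gabra5, Itga6 and Asic2 had the opposite sign there from the other 6 libraries. Against other large nuclei, day 7 was the highest for Itga6 (0.722) and Scn10a (0.573), where it had no Scn10a UMI in the other large nuclei. The 10x control was the highest for Kcnd3 against other large nuclei (0.692). Scratch lesions had the highest share of members in cluster 8 (gap 0.606), 54.1%, against 29.7 to 39.3% in the other 6 libraries.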

How the results depend on the processing

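Of the values of named genes, many of them chosen for 1 direction in every library, 2435 kept their direction and their side of the threshold under the alternatives, 36 lost the call and 7 reversed, and 40 of 70 genes named against zero nuclei and 53 of 54 named against other large nuclei kept both under every alternative in which they were tested. Only 39 of the 70 were tested within cluster 8. Depth limits the shares, and day 7, with 25 members, limits every value that rests on it.

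Against zero nuclei, genes higher and lower numbered 271 and 472 without library as a block, 695 and 897 in thinned nuclei and 635 and 1132 under the stricter rule. They numbered 1064 and 1175 with zero nuclei matched in part on depth, and 95 and 104 within cluster 8 alone, an alternative chosen after seeing the data. Leaving out 1 library at a time gave 1442 to 2003 higher and 1553 to 1823 lower. Against other large nuclei they numbered 407 and 327 without the block, 315 and 280 in thinned nuclei and 565 and 509 under the stricter rule, and 706 to 940 and 583 to 848 with 1 library left out. Without the block, 11 of the genes named against zero nuclei lost their calls (Ntng1, Gal, Asic2, Ptger3, Gnaq, Ache, Apoe, Atf3, Sox11, Sema6a and Slit2), and the cause was not tested. In members after IOT against members of the other libraries, DESeq2 called 23 and the fit with no filter on low counts 87, and 0 to 97 were called with 1 library left out. For the interaction these counts were 3 without the filter and 0 to 1 with 1 library left out.

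Within cluster 8 alone the log2 difference reversed for Ntng1 (-0.38), Gabra5 (-0.13), Piezo2 (-0.070), Col4a2 (-0.025), Rgs6 (-0.010), Fam19a1 (-0.00020) and Apoe (0.076). A coarser clustering put 61.6% of members in the leading cluster.

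Thinned to 1500 UMIs, under the stricter rule and under the looser rule (2 UMIs from 2 genes), shares were 0.458, 0.595 and 5.08% in the 10x control, 0.260, 0.759 and 5.88% at day 2, 0.0784, 0.0248 and 1.54% at day 7, 0.519, 0.816 and 6.33% at day 21, 0.495, 1.40 and 9.55% at day 75, 0.151, 0.0924 and 2.92% after facial injury, 0.235, 0.179 and 3.08% with scratch lesions, and 0.303, 0.0944 and 2.86% in Drop-seq. Members and the nuclei they were set against were blocked by library in the reported tests. Between conditions, no paired analysis was possible because each injury condition and time was 1 library and equal replicate numbers mark no pairs.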
